A study of Mus musculus with 62 samples.

Results

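Thyroid hormone acts through nuclear receptors. In a mouse study of melanoma cells labelled cachectic (wasting), 5 genes of this pathway were followed in the cerebellum: Dio2, Thra, Thrb, Klf9 and Hr. They were chosen by name, as a deiodinase that makes active hormone, the receptor genes and a pair of response genes, and all 5 were found among the 47643 gene symbols of the deposited table. Values were in TPM, a unit corrected for gene length in which the genes of each library add up to 1000000, so sequencing depth cannot be read from them. RNA-seq of 62 cerebellum libraries from female mice covered an injection of cachectic melanoma cells (CAC), an injection of non-cachectic melanoma cells (NCAC), and a mock injection, each at 2, 4, 6 and 8 weeks (wk) after injection. The labels give the mice as 2 months old in all groups, and each group held 5 libraries, except CAC at 8 wk with 7. No transgene or drug is named for any group. The labels disagree on strain, with C57BL6/J in the sample fields and NCI Ath/nude, a strain of athymic mice, in the design text, so the strain is left unstated here. Libraries were described as biological replicates but not tied to named animals, so p-values measure the spread between libraries.

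The thyroid gland releases mainly the prohormone thyroxine, and tissues convert it to the active hormone triiodothyronine. In brain, astrocytes and tanycytes express the activating type II deiodinase encoded by Dio2, transporters carry the hormones across membranes, and the receptors encoded by Thra and Thrb bind hormone response elements, usually with a retinoid X receptor, repressing genes without hormone and activating them with it. The cerebellum is a classic target, since hypothyroidism in early life delays granule cell migration, Purkinje cell dendrite growth and myelination. Dio2 activity in brain is known to rise when circulating thyroxine is low, and illness or fasting can lower circulating thyroid hormone; no hormone measurement was analysed here.

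At 8 wk, Thra, Klf9 and Hr were higher in CAC than in mock, by 1.23-, 1.33- and 1.36-fold on the TPM + 1 scale, and Thrb and Dio2 did not pass the test. The same 3 genes were higher in CAC than in NCAC at 8 wk, where the call of Klf9 was lost in 2 of 20 alternative fits, and none of the 5 passed the test between NCAC and mock at any week. At 6 wk Thra passed the test against NCAC but not against mock. None of the 5 genes passed in CAC against either comparison group at 2 or 4 wk. The differences were tested with limma on log2(TPM + 1) over 14399 symbols with a mean of at least 1 TPM, and p-values were adjusted over all of them by the Benjamini-Hochberg method with a threshold of 0.05. All 5 genes passed this filter on low values.

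The libraries had the profile of cerebellum. Summed levels were 2653 to 3410 TPM for 5 granule cell markers and 1858 to 2506 TPM for 5 Purkinje cell markers, whereas 4 forebrain markers summed to at most 8.04 TPM and 4 melanocytic markers to at most 3.06 TPM. Other material varied more: 6 choroid plexus markers summed to between 11.2 and 6958 TPM, and 4 haemoglobin genes to between 128 and 20330 TPM. In tissue RNA of this kind, fewer cells of a type and less RNA per cell cannot be told apart. In CAC against mock at 8 wk, 20.8% of all tested symbols passed the test, 13.4% of them higher and 7.34% lower as shares of all tested. Of the symbols that passed, 64.6% were higher, against 49.4% after median-of-ratios scaling, 47% after quantile normalization and 41.8% without mitochondrially encoded genes, so the balance of higher and lower calls depended on the scaling.

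**Figure D1:**
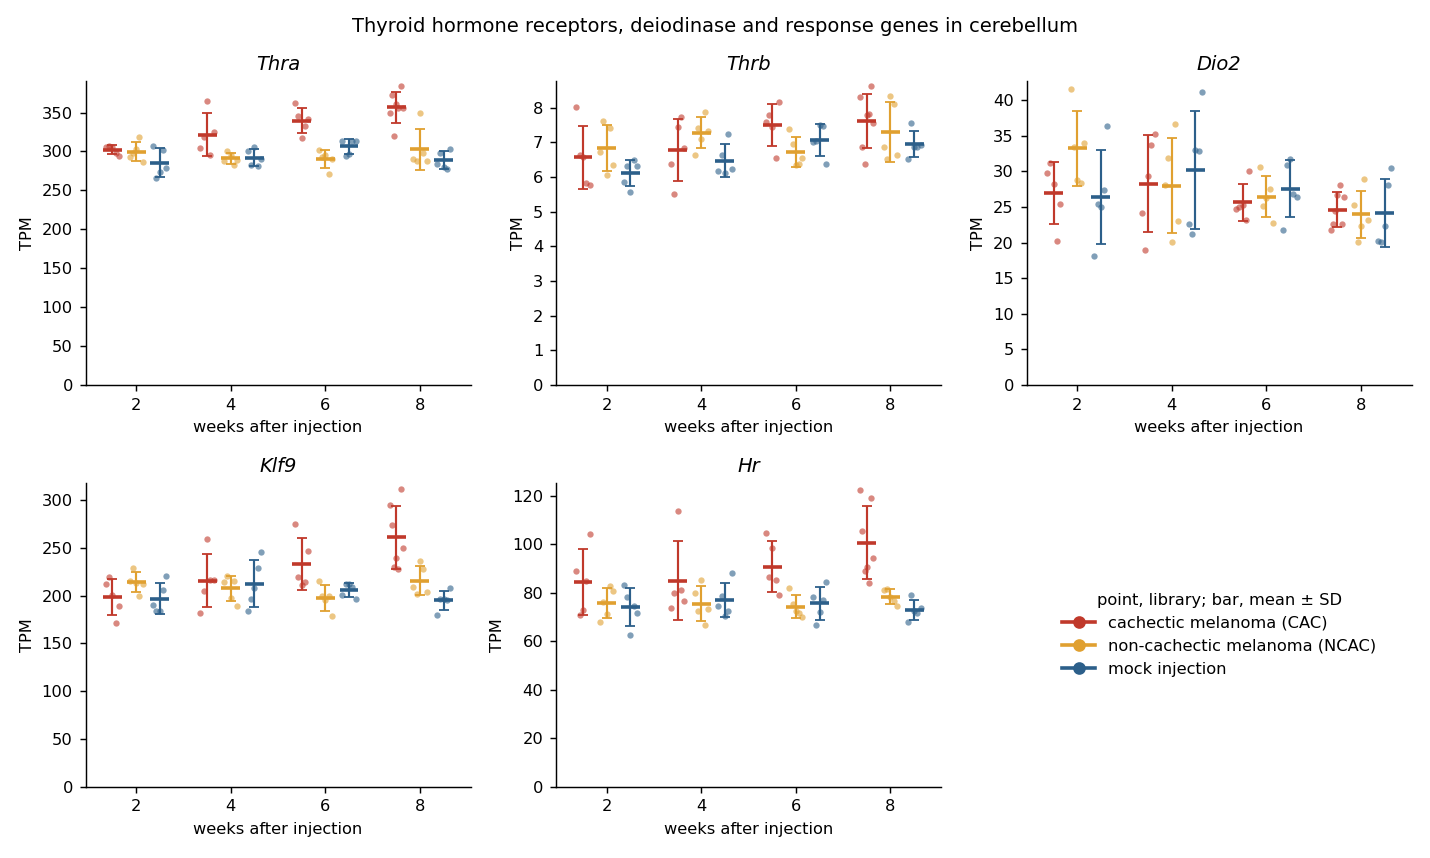
Level in TPM (vertical axis, from 0) of the 5 genes against weeks after injection; points are libraries, bars are the mean ± SD of each group, with CAC, NCAC and mock from left to right in each week. Thra, Klf9 and Hr reached their highest group means in CAC at 8 wk, whereas the Dio2 groups overlapped at every week.

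The activating enzyme was considered first. Dio2 lies on chromosome 12 (mm10, chr12:90724552-90738438, minus strand). Over all libraries its level ranged from 18.1 to 41.5 TPM with a mean of 27.0 ± 5.26 TPM (SD, n = 62), which made it the most variable of the 5 genes, with an SD of 19.4% of the mean. The order of its group means began with 33.2 ± 5.29 TPM in NCAC at 2 wk and ended with 23.95 ± 3.35 TPM in NCAC at 8 wk (SD, n = 5 each). All 11 neighbouring pairs in that order lay closer together than the larger of their SDs. The same held for Thra, Thrb, Klf9 and Hr, so this closeness does not set Dio2 apart.

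At 8 wk, Dio2 had a lowest value of 21.7, a median of 24.5 and a highest value of 28.1 TPM in the 7 CAC libraries. It was at 25.3, 20.1, 22.3, 28.9 and 23.2 TPM in NCAC and at 20.2, 20.0, 22.3, 28.0 and 30.4 TPM in mock. The CAC libraries lay within the range of the mock libraries. The log2 fold change of CAC against mock was 0.039 ± 0.147 (SE), with a 95% interval from -0.26 to 0.33 and an adjusted p of 0.887 in limma. Against NCAC it was 0.044 ± 0.147, with an adjusted p of 0.899 in limma. The interval holds changes in either direction, so it does not show equal levels.

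At 2 wk Dio2 was at 41.5, 33.4, 28.8, 28.4 and 33.98 TPM in NCAC, against 18.1, 25.4, 24.98, 27.3 and 36.4 TPM in mock. NCAC against mock gave a log2 fold change of 0.34 ± 0.159 (SE), with an unadjusted p of 0.0378 and an adjusted p of 0.908 in limma, and the groups overlapped. In CAC at 2 wk Dio2 was at 29.7, 31.2, 28.3, 20.2 and 25.4 TPM, and its log2 fold change against mock was 0.045 ± 0.159.

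The window of 250 bases before the RefSeq start of Dio2 (GRCm38.p6, chr12:90739039-90739288, minus strand) is shown because it holds a cAMP response element, the kind of site through which Dio2 is known to respond to cAMP. The capitals mark the element, 95 bases before the start.
Dio2: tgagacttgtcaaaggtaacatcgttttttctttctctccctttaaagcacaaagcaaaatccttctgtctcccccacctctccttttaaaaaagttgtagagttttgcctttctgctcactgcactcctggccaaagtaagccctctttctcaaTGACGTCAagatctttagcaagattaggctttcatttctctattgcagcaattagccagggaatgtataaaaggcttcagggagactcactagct
The letters TGACGTCA were found on either strand in 1.55% of the 32851 windows in the RefSeq table. A match is a stretch of letters, and binding was not measured.

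The receptor genes differed widely in level. Thra, on chromosome 11 (mm10, chr11:98740638-98769006, plus strand), encodes the receptor that predominates in brain, and Thrb, on chromosome 14 (mm10, chr14:17660261-18038090, plus strand), encodes the receptor known for its roles in the retina, the cochlea and pituitary feedback. Thra averaged 308 ± 27.3 TPM and Thrb 6.95 ± 0.729 TPM (SD, n = 62 each). The ratio of Thra to Thrb in TPM, a length-scaled measure, ranged from 35.9 to 57.9 over the libraries. Its mean was 47.1 ± 3.94 in CAC (SD, n = 7), 41.7 ± 2.85 in NCAC (SD, n = 5) and 41.6 ± 1.93 in mock (SD, n = 5) at 8 wk, and this ratio was not tested.

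Thra RNA is spliced into products with different functions. The GENCODE M21 annotation of the same build lists 9 transcripts for Thra, of which 4 are protein-coding. Thra-202 has a coding sequence of 1233 bases and encodes receptor alpha 1, which binds hormone, and Thra-201 has one of 1479 bases and encodes alpha 2, which does not bind hormone and can oppose the action of alpha 1. The pair share their first 1111 coding bases. The bases around the point where they part are shown because reads beyond it are what would separate the products. Both lines run from coding base 1088 to 1147 on the plus strand, with shared bases in lower case and the bases of each product alone in capitals.
Thra-201: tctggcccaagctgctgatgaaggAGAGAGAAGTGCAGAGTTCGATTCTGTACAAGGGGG
Thra-202: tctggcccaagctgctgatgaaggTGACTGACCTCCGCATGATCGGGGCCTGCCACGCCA
The deposited table gives 1 value for the symbol Thra, so the levels below are for all its products together.

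The last exon of Thra-201 overlaps a neighbouring gene on the opposite strand. Nr1d1, which encodes the clock repressor REV-ERB alpha, lies at chr11:98767932-98775333 on the minus strand. The genes share 1075 bases, and the exons of Thra-201 and of the coding transcript of Nr1d1 share 263 bases. Thra-202 shares no exon bases with Nr1d1 and ends 2820 bases short of it. The libraries were made with a stranded kit, but the handling of strand in the counting is not given in the sources used here. Nr1d1 averaged 187 ± 23.8 TPM in CAC (SD, n = 7), 191 ± 18.0 TPM in NCAC (SD, n = 5) and 186 ± 15.5 TPM in mock (SD, n = 5) at 8 wk. Its log2 fold change of CAC against mock was -0.00054 ± 0.097 (SE), with an adjusted p of 0.998 in limma.

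**Figure D2:**
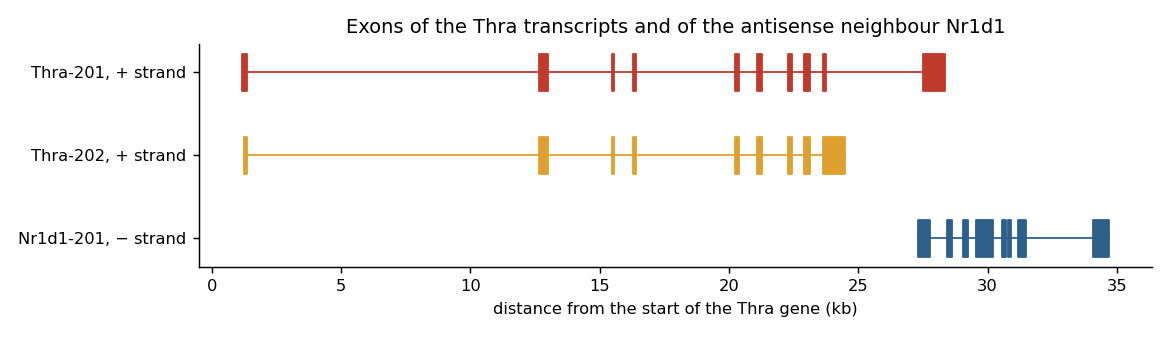
Exons (boxes) and introns (lines) of Thra-201 and Thra-202 on the plus strand and of the coding Nr1d1 transcript on the minus strand, drawn to scale against the distance in kb from the start of the Thra gene. The last exon of Thra-201 reaches into the Nr1d1 gene, and Thra-202 ends before it.

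At 8 wk, Thra had a lowest value of 319.4, a median of 355.3 and a highest value of 384.5 TPM in the 7 CAC libraries. It was at 289.7, 287.1, 349.5, 298.5 and 287.7 TPM in NCAC. It was at 283.5, 298.4, 280.4, 278.0 and 303.5 TPM in mock. Every CAC library was above every mock library, a separation that 3.24% of all tested symbols showed in that direction, and NCAC replicate 3 reached into the CAC range. The log2 fold change of CAC against mock was 0.30 ± 0.043 (SE), with an adjusted p of 2.41e-06 in limma. Of the 14399 symbols Thra ranked at place 25 by p, although 9.67% of symbols had a change at least as large. Its SD over all libraries was 8.86% of its mean, the smallest of the 5 genes.

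The rise of Thra was also present against the other tumour. CAC against NCAC at 8 wk gave a log2 fold change of 0.24 ± 0.043 (SE), with an adjusted p of 1.85e-04 in limma. In that comparison 11.8% of all tested symbols passed the test, 7.76% higher and 4.01% lower. Both comparisons use the same CAC libraries. NCAC against mock at 8 wk gave 0.064 ± 0.047 for Thra, with an adjusted p of 0.778 in limma.

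The group means of Thra in CAC followed the order of the weeks. They were 302 ± 5.68 TPM at 2 wk, 322 ± 27.1 TPM at 4 wk, 340 ± 16.4 TPM at 6 wk (SD, n = 5 each) and 357 ± 20.2 TPM at 8 wk (SD, n = 7). The mock means were 285, 292, 306 and 289 TPM at the same weeks, with SDs between 9.86 and 18.5 TPM (n = 5 each). The change over time within CAC alone was not among the comparisons made, and neighbouring means lay closer together than the larger of their SDs.

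At 6 wk Thra was at 361.6, 345.7, 317.2, 332.3 and 341.1 TPM in CAC. It was at 302.5, 292.7, 294.9, 270.9 and 289.8 TPM in NCAC and at 313.3, 294.7, 296.5, 313.6 and 313.6 TPM in mock. All 5 CAC libraries were above all NCAC and all mock libraries, and 5.59% and 2.43% of tested symbols showed the same separation from NCAC and from mock. Against NCAC the log2 fold change was 0.23 ± 0.047 (SE), with an adjusted p of 0.00355 in limma, in a comparison where 9.45% of symbols passed, 7.47% higher and 1.99% lower. Against mock it was 0.15 ± 0.047, with an unadjusted p of 0.00261 and an adjusted p of 0.0842 in limma, in a comparison where 1.72% of symbols passed, 1.41% higher and 0.313% lower.

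At 4 wk Thra was at 318.5, 365.2, 295.3, 325.5 and 303.8 TPM in CAC, against 300.0, 282.2, 306.2, 281.1 and 289.9 TPM in mock. These groups overlapped, and 0.583% of symbols had every CAC library above every mock library. CAC against mock gave a log2 fold change of 0.14 ± 0.047 (SE), with an unadjusted p of 0.00497 and an adjusted p of 0.538 in limma. In that comparison 0.00694% of symbols passed the test. At 2 wk the log2 fold change was 0.084 ± 0.047, with an unadjusted p of 0.0788, and no symbol passed.

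Thrb stayed near the low end of the scale in all groups. At 8 wk it had a lowest value of 6.38, a median of 7.79 and a highest value of 8.61 TPM in the 7 CAC libraries. It was at 6.85, 6.53, 8.35, 8.10 and 6.62 TPM in NCAC and at 6.52, 7.55, 6.88, 6.87 and 6.92 TPM in mock. All 3 groups overlapped. CAC against mock gave a log2 fold change of 0.11 ± 0.069 (SE), with a 95% interval from -0.025 to 0.25 and an adjusted p of 0.247 in limma. On the log2(TPM + 1) scale a change of a gene at this level is understated.

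Thrb had its highest group mean in CAC at 8 wk, 7.62 ± 0.777 TPM (SD, n = 7), and its lowest in mock at 2 wk, 6.11 ± 0.380 TPM (SD, n = 5). In mock at 8 wk against mock at 2 wk its log2 fold change was 0.16, with an unadjusted p of 0.0354 and an adjusted p of 0.557 in limma. In that comparison 0 of all tested symbols passed. In NCAC at 4 wk it was at 6.64, 7.42, 7.10, 7.87 and 7.33 TPM, against 6.16, 6.63, 6.11, 7.23 and 6.23 TPM in mock, a log2 fold change of 0.15 ± 0.074 with an unadjusted p of 0.0533.

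Among the response genes, Klf9 encodes a Krüppel-like transcription factor that thyroid hormone induces in developing neurons and oligodendrocytes, and that glucocorticoids also induce. It lies on chromosome 19 (mm10, chr19:23141226-23168134, plus strand). At 8 wk Klf9 had a lowest value of 228.1, a median of 249.3 and a highest value of 311.0 TPM in the 7 CAC libraries. It was at 208.9, 201.1, 235.8, 228.1 and 204.1 TPM in NCAC. It was at 179.6, 196.9, 196.3, 194.8 and 207.8 TPM in mock.

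Every CAC library at 8 wk was above every mock library for Klf9, whereas CAC and NCAC overlapped. The separation from mock was shown by 3.24% of all tested symbols. CAC against mock gave a log2 fold change of 0.41 ± 0.074 (SE), with an adjusted p of 8.00e-05 in limma, and 4.93% of tested symbols had a change at least as large. Against NCAC it was 0.27 ± 0.074, with an adjusted p of 0.0117 in limma. This call was lost in 2 of 20 alternative fits, with an adjusted p of 0.0674 when only the compared groups were fitted and 0.105 in the other fit in limma.

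Klf9 did not pass the test between CAC and mock at the early weeks. Its log2 fold change was 0.013 ± 0.080 at 2 wk, with an adjusted p of 1, and 0.020 ± 0.080 at 4 wk, with an adjusted p of 0.970 (SE, limma). At 6 wk it was at 274.5, 219.1, 210.8, 213.7 and 246.7 TPM in CAC, against 200.9, 211.6, 211.8, 209.5 and 196.2 TPM in mock. The lowest CAC library lay within the mock range, and the log2 fold change of 0.17 ± 0.080 had an unadjusted p of 0.0379 and an adjusted p of 0.283 in limma. Against NCAC at 6 wk the log2 fold change was 0.23 ± 0.080, with an adjusted p of 0.0521 in limma.

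The difference between CAC and mock for Klf9 was larger at 8 wk than at 2 wk. The test of the change in the difference gave a log2 value of 0.40 ± 0.109 (SE), with an adjusted p of 0.0445 in limma, where 1.55% of all tested symbols passed, 0.958% upward and 0.59% downward. The same test gave 0.22 ± 0.064 for Thra, with an adjusted p of 0.0578, and 0.27 ± 0.132 for Hr, with an adjusted p of 0.291 (SE, limma). The call of Klf9 lay close to the threshold: it was lost in 15 of 22 fits that each left out 1 library, namely CAC replicates 1, 3, 4 and 5 and mock replicates 1, 2, 4 and 5 of 2 wk, and CAC replicates 1, 2, 6 and 7 and mock replicates 1, 3 and 4 of 8 wk. Over the 22 fits the log2 value ranged from 0.35 to 0.44 and the adjusted p from 0.0130 to 0.108 in limma. The call of Thra was gained without CAC replicate 3 of 8 wk, with an adjusted p of 0.0118, or without mock replicate 3 of 2 wk, mock replicate 2 of 8 wk or mock replicate 5 of 8 wk, with adjusted p-values of 0.0494, 0.0499 and 0.0398 in limma.

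The window before the RefSeq start of Klf9 (GRCm38.p6, chr19:23140976-23141225, plus strand) is shown because Klf9 was the response gene with the smallest p at 8 wk. The capitals mark the letters CCAAT on either strand, 170, 69 and 66 bases before the start, the last 2 of which overlap.
Klf9: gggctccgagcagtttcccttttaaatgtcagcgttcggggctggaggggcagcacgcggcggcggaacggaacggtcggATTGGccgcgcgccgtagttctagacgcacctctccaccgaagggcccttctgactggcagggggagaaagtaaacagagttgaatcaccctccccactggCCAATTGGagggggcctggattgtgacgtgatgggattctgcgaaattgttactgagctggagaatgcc
CCAAT stood in 33.8% of the 32851 windows and was searched for after the sequence had been seen. The hexamer AGGTCA, the core site of thyroid hormone receptors, its direct repeat with 4 bases between the copies, the glucocorticoid receptor palindrome (AGAACA and TGTTCT with 3 bases between), CACGTG and TGACGTCA were not among the letters of this window. Over all windows and both strands these stood in 14.0%, 0.0152%, 0.00913%, 6.02% and 1.55%, and AGGTCA lies within its own repeat. Of the 5 genes 3 were matched in the table, and the 4 windows were 1 each for Dio2 and Klf9 and 2 for Thrb. A Thrb window held AGGTCA 184 bases before its start, and the other Thrb window held CACGTG 193 bases before its start. Thra and Hr are named here without a window.

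Hr encodes the hairless protein, a corepressor that binds thyroid hormone receptors and whose gene is itself a direct target of the hormone in the developing brain. It lies on chromosome 14 (mm10, chr14:70552212-70573548, plus strand). At 8 wk Hr had a lowest value of 84.2, a median of 94.3 and a highest value of 122.4 TPM in the 7 CAC libraries. It was at 81.0, 81.7, 78.4, 76.8 and 74.5 TPM in NCAC. It was at 67.8, 79.2, 72.6, 71.5 and 73.7 TPM in mock.

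Every CAC library at 8 wk was above every NCAC and every mock library for Hr. The separation from NCAC was shown by 1.94% of all tested symbols, and that from mock by 3.24%. The log2 fold change of CAC against mock was 0.45 ± 0.090 (SE), with an adjusted p of 2.75e-04 in limma, and 3.99% of symbols had a change at least as large. Against NCAC it was 0.34 ± 0.090, with an adjusted p of 0.00753 in limma.

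Hr was higher in CAC than in mock by its mean at every week, with wide spread. At 2 wk it was at 89.0, 71.0, 72.8, 85.0 and 104.2 TPM in CAC, against 83.3, 78.2, 62.5, 74.7 and 71.8 TPM in mock, a log2 fold change of 0.18 ± 0.097 with an unadjusted p of 0.0719. At 6 wk it was at 104.8, 86.4, 98.3, 85.4 and 79.2 TPM in CAC, against 78.2, 66.6, 72.0, 77.2 and 84.3 TPM in mock. The groups overlapped in both weeks. At 6 wk CAC against mock gave a log2 fold change of 0.26 ± 0.097 (SE), with an unadjusted p of 0.0102 and an adjusted p of 0.155 in limma. Against NCAC at 6 wk it was 0.28 ± 0.097, with an adjusted p of 0.0525 in limma.

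At 6 wk, then, 0 of the 5 genes passed the test between CAC and mock in limma, where an unadjusted p under 0.05 was met by 3 and by 16% of all tested symbols, and 1 passed between CAC and NCAC. The count against NCAC was 3 when only symbols of at least 5 TPM were tested, with adjusted p-values of 0.0464 for Klf9 and 0.0466 for Hr in limma. It was also 3 without CAC replicate 4 or NCAC replicate 1 of 6 wk, and 2 without CAC replicate 2, 3 or 5. Between NCAC and mock, limma called 0 of the 5 at 2, 4, 6 or 8 wk; the counts with an unadjusted p under 0.05 were 1, 0, 0 and 0, a threshold that 5.42%, 2.13%, 8.35% and 7.21% of all tested symbols met. Background calls in that comparison were 0.0139% of symbols at 2 wk and 0 in the other weeks.

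**Figure D3:**
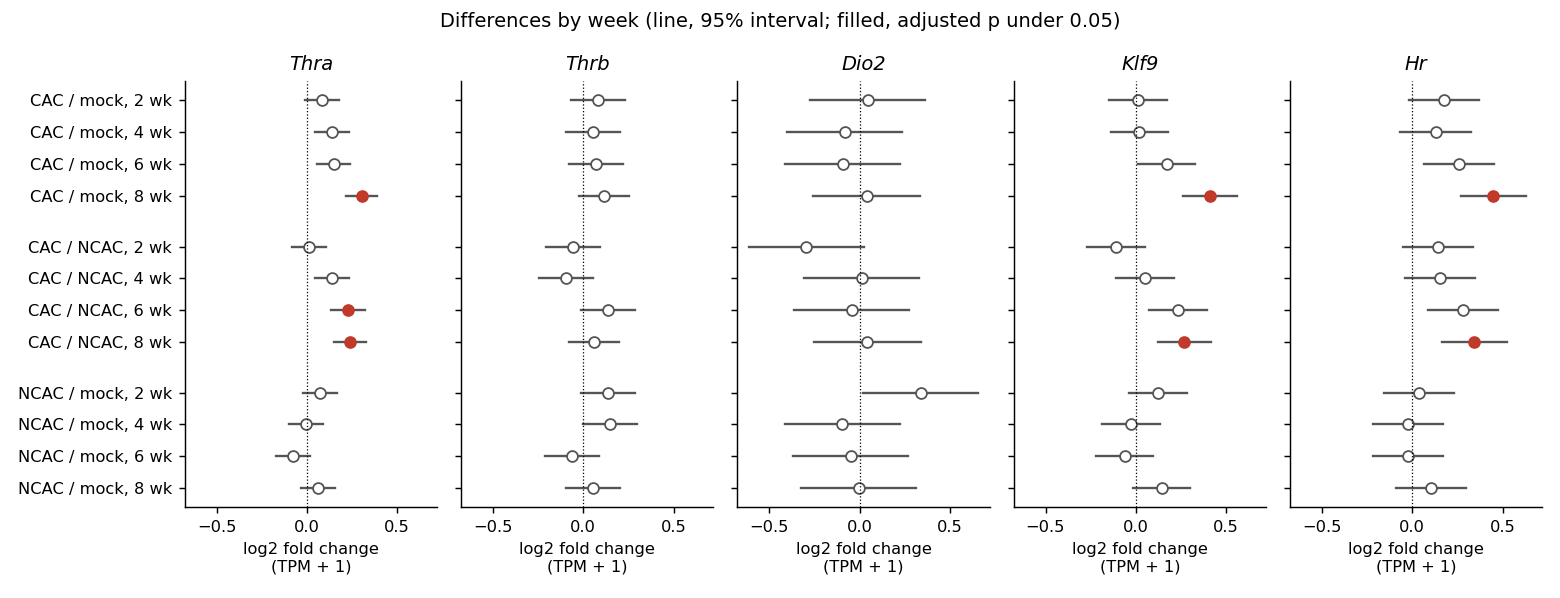
Log2 fold change of TPM + 1 (horizontal axis) of the 5 genes for CAC against mock, CAC against NCAC and NCAC against mock, from top to bottom, each at 2, 4, 6 and 8 wk; lines are 95% intervals and filled points passed an adjusted p of 0.05. Filled points stand at 8 wk for Thra, Klf9 and Hr in both CAC comparisons, and at 6 wk for Thra against NCAC alone.

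The 5 genes were set beside others whose pattern was most like theirs, by Pearson's r of log2(TPM + 1) over the 62 libraries, which share groups, weeks and scaling. Thra was most like Pink1, with r = 0.88, then Cyp2d22, with 0.88, and Sun2, with 0.88. Klf9 was most like Klf15, with 0.90, Net1, with 0.90, and Slco4a1, with 0.89. Hr was most like Abca2, with 0.87, Arvcf, with 0.83, and Col5a3, with 0.82. Likeness was weaker for Dio2, led by Vcan with 0.79, Erc1 with 0.75 and Vps13a with 0.72, and for Thrb, led by Plce1 with 0.68, Ppargc1a with 0.68 and Aass with 0.67. Within groups, after each group mean was removed, r was 0.67 for Pink1 with Thra, 0.82 for Klf15 with Klf9, 0.76 for Abca2 with Hr, 0.75 for Vcan with Dio2 and 0.65 for Plce1 with Thrb.

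These genes were picked on all libraries, CAC and mock at 8 wk included, so the choice bears on their direction there and their levels are given as a description, with no test. Klf15, a Krüppel-like factor induced by glucocorticoids, had a lowest value of 28.6, a median of 40.2 and a highest value of 60.3 TPM in the CAC libraries of 8 wk, against 18.5, 23.6 and 26.7 TPM in mock. Pink1, a mitochondrial quality-control kinase, averaged 482 ± 24.6 TPM in CAC (SD, n = 7) and 381 ± 12.6 TPM in mock (SD, n = 5). Among the genes most like Dio2, Vcan had a log2 fold change of 0.025 and Erc1 of 0.048 between CAC and mock at 8 wk.

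The rest of the pathway was described at 8 wk by 3 lists, with counts of the members that passed the test for CAC against mock. The median log2 fold change over all tested symbols was 0.021, and 13.4% of them were called higher and 7.34% lower, the shares against which each count is to be read. Of 11 genes of hormone transport and metabolism, 9 were tested, 3 rose and 1 fell, with a median of 0.10; a single lower call among 9 genes is close to the share of 7.34%. The other deiodinase genes did not reach the filter: Dio1 was at 0 in 59 of 62 libraries, and Dio3, which inactivates the hormone, averaged 0.168 TPM.

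The main thyroxine carriers of the blood-brain barrier did not move together. Slco1c1, which encodes the thyroxine transporter of brain endothelium and astrocytes, had a lowest value of 35.1, a median of 41.7 and a highest value of 47.6 TPM in CAC, against 45.1, 49.4 and 51.0 TPM in mock. It fell by 0.22 ± 0.079 on the log2 scale (SE), with an adjusted p of 0.0394 in limma, and the count of lower genes was 0 without any 1 of CAC replicates 1, 2 and 6 or mock replicates 1, 3 and 4 of 8 wk. Slco1a4, an organic anion transporter of the same barrier that also carries thyroid hormones, rose by 0.31 ± 0.078, with an adjusted p of 0.00305 in limma.

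The largest change on that list was in Sult1a1, a phenol sulfotransferase that can sulfate iodothyronines. It had a lowest value of 10.7, a median of 48.1 and a highest value of 82.5 TPM in CAC, against 7.34, 7.92 and 13.8 TPM in mock, and the lowest CAC library lay within the mock range. The log2 fold change was 2.13 ± 0.361 (SE), with an adjusted p of 3.41e-05 in limma. Slc16a10, which encodes the aromatic amino acid transporter MCT10 that also carries thyroid hormones, averaged 4.90 ± 0.918 TPM in CAC (SD, n = 7) and 3.59 ± 0.545 TPM in mock (SD, n = 5), a log2 fold change of 0.35 ± 0.116 with an adjusted p of 0.0228 in limma. Of 4 endothelial markers 1 rose, Ly6c1, beside 13.4% of all tested symbols called higher. The sum of the 4 was 147 to 235 TPM in CAC and 120 to 154 TPM in mock, and its part in the transporter results was not tested.

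Of 14 receptor partners and coregulators, 13 were tested, 7 rose and 0 fell, with a median of 0.11, beside 13.4% of all tested symbols higher and 7.34% lower. Rxra, a retinoid X receptor that pairs with thyroid hormone receptors, averaged 19.3 ± 2.87 TPM in CAC (SD, n = 7) and 14.0 ± 0.954 TPM in mock (SD, n = 5), a log2 fold change of 0.42 ± 0.109 with an adjusted p of 0.00373 in limma. Ncoa2, a coactivator of nuclear receptors, rose by 0.18 ± 0.039, and Ppargc1a, a coactivator of mitochondrial genes, rose by 0.21 ± 0.055 on the log2 scale, with adjusted p-values of 4.58e-04 and 0.00436 in limma. Tbl1x, part of the corepressor complex, had a log2 fold change of 0.12, with an adjusted p of 0.0269 in limma. The count of 7 was 3 after median-of-ratios scaling, after quantile normalization or without mitochondrially encoded genes, namely Ncoa2, Rxra and Ppargc1a. The share of all tested symbols called higher was then 10.4%, 10.2% and 8.81%, in place of 13.4%. The count was also 3 without CAC replicate 4, mock replicate 1 or mock replicate 3 of 8 wk.

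Of 22 other genes known to respond to thyroid hormone in brain or other tissues, all 22 were tested, 1 rose and 7 fell, with a median of -0.048, beside 13.4% of all tested symbols higher and 7.34% lower. Among those that fell were Me1, a malic enzyme induced by the hormone, Mag, a component of myelin, and Gbp3, a guanylate-binding protein. Me1 averaged 52.8 ± 4.398 TPM in CAC (SD, n = 7) and 62.4 ± 1.53 TPM in mock (SD, n = 5), a log2 fold change of -0.24 ± 0.045 with an adjusted p of 1.17e-04 in limma. Every CAC library was below every mock library for Me1, with 45.7 to 59.8 TPM in CAC and 60.7 to 64.2 TPM in mock, a separation that 1.25% of all tested symbols showed in that direction.

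Mag fell by 0.50 ± 0.097 and Gbp3 fell by 0.94 ± 0.232 on the log2 scale (SE), with adjusted p-values of 1.81e-04 and 0.00245 in limma. The 1 gene that rose was Rora, an orphan nuclear receptor needed by Purkinje cells, with a log2 fold change of 0.11 and an adjusted p of 0.0291 in limma; it did not pass after any of the 3 other scalings or without CAC replicate 4 or 6 of 8 wk, where the count of higher genes was 0, and that count was 2 without CAC replicate 3 or 5. Oligodendrocyte markers moved with the lower genes of this list: 4 of 5 fell, and their sum was 316 to 369 TPM in CAC and 354 to 507 TPM in mock, and Mag is itself among the 5. Of 4 microglia markers 3 fell, with a median log2 fold change of -0.41, and their sum was 23.0 to 41.1 TPM in CAC and 37.0 to 56.7 TPM in mock. Both marker counts stand beside 7.34% of all tested symbols called lower. The part of oligodendrocyte or microglia number or RNA in the lower response genes was not tested. Klf9 and Hr, which rose, thus stood on the other side of 0 from most of the called genes of this list.

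**Figure D4:**
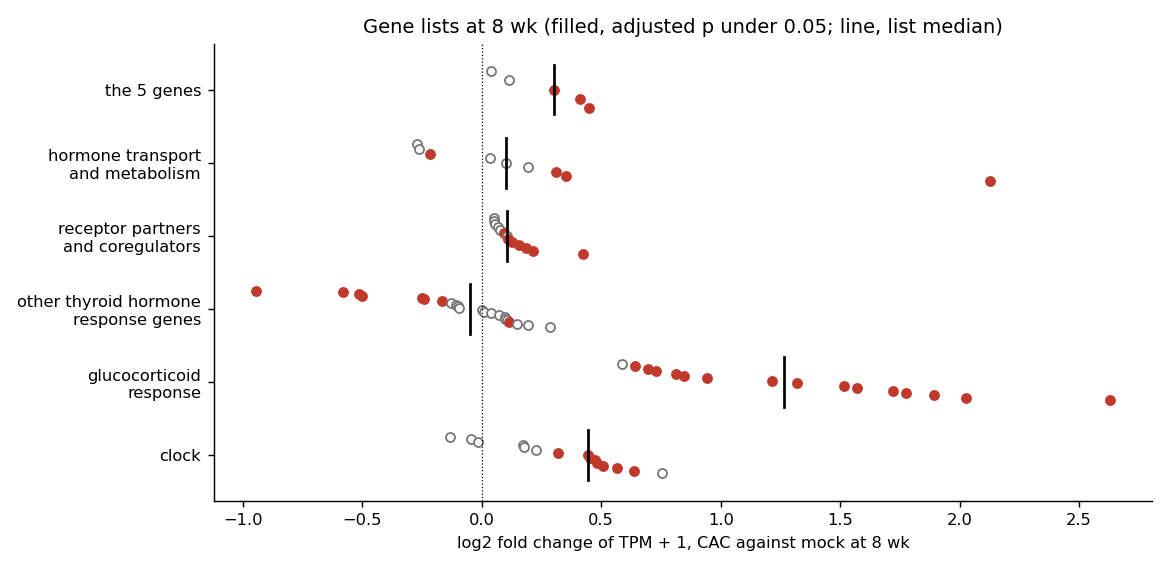
Log2 fold change of TPM + 1 (horizontal axis) for CAC against mock at 8 wk, 1 point for each tested gene, in 6 lists down the page; filled points passed an adjusted p of 0.05, and vertical lines are list medians. The glucocorticoid response genes lie to the right of 0 with a median of 1.27, whereas the other thyroid hormone response genes have a median of -0.048.

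Klf9 is shared with the response to glucocorticoids, the adrenal steroids released in stress and fasting, and genes of that response were set beside it. Of 16 such genes, all were tested, 15 rose and 0 fell in CAC against mock at 8 wk, with a median log2 fold change of 1.27. Beside them, 13.4% of all tested symbols were called higher and 7.34% lower. Mt1, a metallothionein, averaged 2055 ± 575 TPM in CAC (SD, n = 7) and 690.2 ± 64.0 TPM in mock (SD, n = 5), a log2 fold change of 1.52 ± 0.204 with an adjusted p of 8.84e-07 in limma. Mt2 rose by 1.72 ± 0.265, Sgk1, a kinase of ion transport, by 1.21 ± 0.193, and Ddit4, an inhibitor of mTORC1, by 0.81 ± 0.116 on the log2 scale, with adjusted p-values of 8.18e-06, 1.33e-05 and 2.54e-06 in limma. Earlier results of these data had already shown these genes to be higher, so the list is no independent evidence of its direction.

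The mean log2(TPM + 1) of the 16 genes was 5.32 to 6.76 in the CAC libraries and 4.61 to 5.45 in the mock libraries at 8 wk. CAC replicate 3 stood apart from the other 6 CAC libraries at 5.32, within the mock range, and the others were at 6.06 or above. Single genes of the list differed from this mean. Mt1, Mt2, Sgk1 and Ddit4 were above every mock library in every CAC library, a separation that 3.24% of all tested symbols showed. In CAC replicate 3, Klf15 was at 28.6 TPM, above the highest mock value of 26.7 TPM. Fkbp5, also on the list, was at 7.14 TPM there, within the mock range of 4.26 to 7.82 TPM. In that library Klf9 was at 230.1, Hr at 89.1 and Thra at 319.4 TPM, each above every mock library of 8 wk. In other weeks, mock libraries reached 245.0 TPM of Klf9 and 88.3 TPM of Hr, both at 4 wk, and 313.6 TPM of Thra at 6 wk. NCAC libraries of 8 wk reached 235.8 TPM of Klf9, 81.7 TPM of Hr and 349.5 TPM of Thra. Without CAC replicate 3, the log2 fold changes of CAC against mock at 8 wk were 0.44 for Klf9, 0.47 for Hr and 0.33 for Thra, with adjusted p-values of 1.97e-05, 1.25e-04 and 1.70e-07 in limma. The counts of the 16 genes stayed at 15 higher and 0 lower. The part of the glucocorticoid response in the levels of Klf9, Hr and Thra was not tested.

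**Figure D5:**
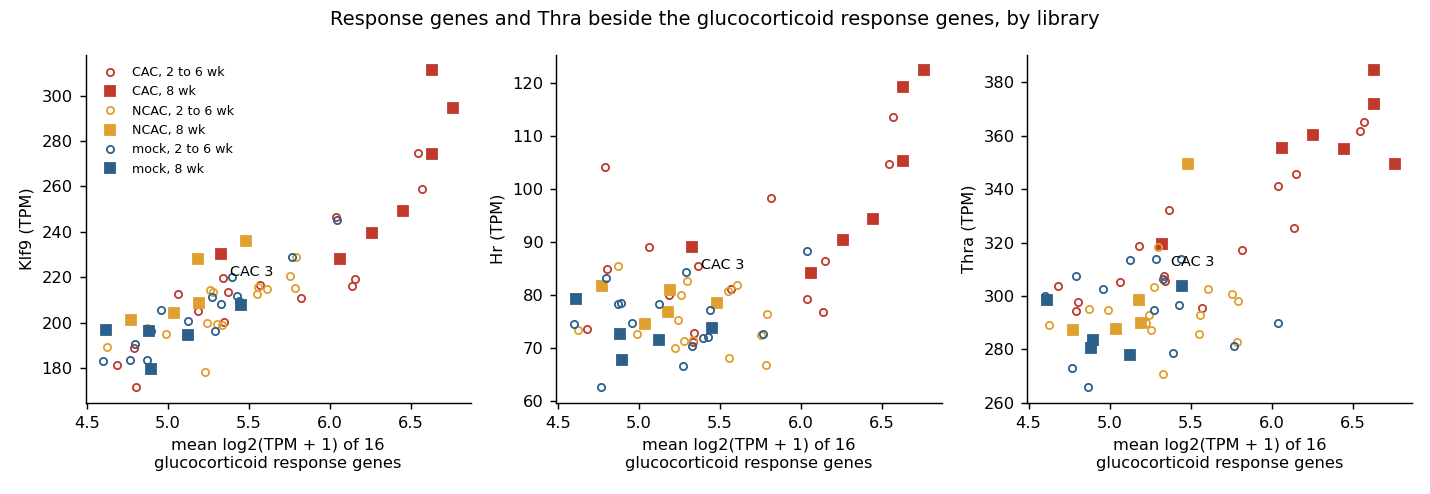
Level in TPM of Klf9, Hr and Thra (vertical axes, which do not start at 0) against the mean log2(TPM + 1) of 16 glucocorticoid response genes, 1 point for each of 62 libraries; filled squares are libraries of 8 wk and open circles those of earlier weeks. CAC replicate 3 of 8 wk lies at 5.32 on the horizontal axis, among the mock libraries, with 230.1 TPM of Klf9.

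Clock genes were set beside Thra because of its overlap with Nr1d1. Of 15, all were tested, 8 rose and 0 fell in CAC against mock at 8 wk, with a median of 0.45. In that comparison 13.4% of all tested symbols were called higher and 7.34% lower. Bhlhe40, a repressor of the clock, averaged 119 ± 15.3 TPM in CAC (SD, n = 7) and 79.6 ± 5.05 TPM in mock (SD, n = 5), a log2 fold change of 0.57 ± 0.099 with an adjusted p of 5.42e-05 in limma. Cry2 and Per3 rose by 0.32 ± 0.067 and 0.45 ± 0.103 on the log2 scale, with adjusted p-values of 5.15e-04 and 0.00108 in limma. Nr1d1 itself did not pass, as given above. The 15 leave out Dbp and Per1, also tied to the clock, which were counted with the thyroid hormone and glucocorticoid response genes. At 8 wk Dbp averaged 155 ± 24.5 TPM in CAC (SD, n = 7) and 166 ± 34.9 TPM in mock (SD, n = 5). Per1 averaged 107 ± 21.9 TPM in CAC (SD, n = 7) and 66.2 ± 23.6 TPM in mock (SD, n = 5). The hour of tissue collection is not given in the labels, and its part in these values was not tested.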

How the data were processed

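RNA of 62 mouse cerebellum libraries was analysed. The authors deposited 1 table of TPM values per gene symbol, and the genome build was mm10, per the submitters' processing notes. Per the labels' protocols, libraries came from a stranded mRNA kit; aligner, quantifier and annotation: not given in the sources used here. The unit keeps no depth, so no counting interval is given, and each value depends on all other genes of its library. How reads shared by overlapping genes or transcripts were assigned is not stated. Of 47643 symbols, 23124 were at 0 in every library.

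Levels were analysed as log2(TPM + 1), which understates changes of low genes, keeping 14399 symbols whose mean over the libraries was 1 TPM or more. One model of the 12 groups was fitted with limma 3.58.1 under R 4.3.3 (eBayes with trend, 50 residual degrees of freedom, no covariate). Two-sided p-values received Benjamini-Hochberg adjustment over all tested symbols, separately in each of 14 comparisons, and 0.05 was the threshold. Besides the 3 pairings of treatments at each week, these compared the difference between CAC and mock at 8 wk with that at 2 wk, and the mock groups of 8 and 2 wk. The fit was tested on simulated data. Groups were taken from the sample descriptions, since the treatment field names cachectic cells throughout. Deviations of same-numbered libraries from their group means had a median correlation of 0.028, with a range from -0.239 to 0.396. Of 60 pairs, 16 were over 0.1. The numbers were not treated as pairs in the main fit, and a fit with the replicate number as a block was run as an alternative.

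The 5 genes and the lists were chosen with earlier results of these data known. Named genes were the 5 genes, up to 4 genes of each list that passed the test in CAC against mock at 8 wk by smallest p (or the 2 with the smallest p where fewer passed), and for each of the 5 the 3 genes with the highest Pearson's r over all libraries. Some genes that this rule names are not reported here. Dio1, Dio3, Ly6c1 and Rora were named after their values were seen. Alternatives changed the pseudocount to 0.1, dropped the filter or raised it to 5 TPM, rescaled by median of ratios or by quantiles, removed mitochondrially encoded genes, added a replicate block, fitted the compared groups alone, or left out each library in turn. The counts of list members without CAC replicate 3 of 8 wk, under the scalings and with each library left out were chosen after seeing the data. Coordinates and transcripts are from GENCODE M21 (mm10) and windows before gene starts from RefSeq (GRCm38.p6); figures were drawn with matplotlib 3.10.9.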

Additional observations from a re-analysis of the deposited data

Results flagged for a closer look

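In 2 of 60 pairs of gene and group, 1 library stood far from the rest of its group, where chance gives about 1 in 20. Thra in NCAC replicate 3 of 8 wk was at 349.5 TPM, against 287.1 to 298.5 TPM in the other 4 NCAC libraries of that week. The same library had the highest Klf9 of its group, 235.8 TPM, and the highest Thrb, 8.35 TPM. Hr in CAC replicate 2 of 4 wk was at 113.6 TPM, against 73.5 to 81.2 TPM in the other 4 CAC libraries of that week. That library also had the highest Thra, 365.2 TPM, and the highest Klf9, 258.7 TPM, of its group. The difference between CAC and mock in Klf9 was larger at 8 wk than at 2 wk, by 0.40 on the log2 scale, with an adjusted p of 0.0445 in limma for the test of that change; this call was lost in 21 of 30 alternative fits, with adjusted p-values up to 0.184.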

How the results depend on the processing

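At 8 wk, 3 of the 5 genes passed in CAC against mock under every alternative run, with lowest and highest log2 fold changes over them of 0.27 and 0.33 for Thra, 0.37 and 0.44 for Klf9, and 0.40 and 0.49 for Hr. For CAC against NCAC at 6 wk the count of 1 became 3 with a mean TPM of at least 5 and 2 with the replicate block, and lay between 1 and 3 with each library left out. For the difference between CAC and mock at 8 wk set against that at 2 wk, the count of 1 became 0 without a filter, with median-of-ratios scaling, with quantile normalization, without mitochondrially encoded genes, with the replicate block and with the compared groups alone, and lay between 0 and 2 with each library left out; the adjusted p of Klf9 in limma was 0.0747, 0.0575, 0.0514, 0.0549, 0.184 and 0.0935 in those 6 fits. The cause was not tested.

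With the replicate number as a block, all 5 genes kept their side of the threshold at 8 wk in CAC against mock; Klf9 against NCAC at 8 wk had a log2 fold change of 0.23 and an adjusted p of 0.105 in limma, and Hr against NCAC at 6 wk one of 0.28 and an adjusted p of 0.0484. Same-numbered libraries correlated in their deviations from group means by between -0.239 and 0.396, with a median of 0.028 and 16 of 60 pairs over 0.1. The block could not be fitted for mock at 8 wk against mock at 2 wk.

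Values near 0 changed sign. Klf9 in CAC against mock at 2 wk was -0.001 with median-of-ratios scaling and -0.002 without mitochondrially encoded genes, and Thrb in the change between 2 and 8 wk was -0.0 with the replicate block. With each library left out, the ranges of log2 fold changes were -0.078 to 0.165 for Dio2 and -0.025 to 0.064 for Klf9 in CAC against mock at 2 wk, -0.194 to 0.047 for Dio2 and -0.048 to 0.080 for Klf9 at 4 wk, and -0.021 to 0.124 for Dio2 at 8 wk. They were -0.099 to 0.009 at 6 wk and -0.015 to 0.112 at 8 wk for Dio2 in CAC against NCAC, and -0.072 to 0.080 for Dio2 in NCAC against mock at 8 wk. They were -0.007 to 0.097 for Thrb and -0.126 to 0.117 for Dio2 in the change between 2 and 8 wk. Group sizes of 5 to 7 libraries and an unknown depth limit the precision.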
